A study of Arabidopsis thaliana with 12 samples.

Results

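In rosettes of Arabidopsis thaliana, 58 of the 33208 features counted had reads in all libraries of 1 genotype and almost none in the other. Of these, 49 were read in med25-1 plants and 9 in wild-type plants, and the 2 directions are kept apart throughout. A gene was taken when it had at least 20 uniquely placed reads in each of the 6 libraries of 1 genotype and at most 12 reads summed over the 6 libraries of the other. The members were thus chosen by their read counts in all 12 libraries, so their genotype difference is given as a description, with no test. PR1, PR2, PR5, ALD1 and FMO1, markers of salicylate-dependent immunity, were left out by name, and 3 of these 5 (PR1, ALD1 and FMO1) had met the same criterion in med25-1.

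Plants of med25-1, the mutant line, and of the wild type were 3 weeks old and grown on sucrose plates. Each genotype was sampled after 3 h at 1% oxygen (hypoxia) and under control conditions, with 3 biological replicates in each of the 4 groups. The labels name neither the lesion of med25-1 nor the accession of the wild type, and only 1 mutant line was profiled, so differences that travel with the line and those of the MED25 mutation cannot be told apart. The 12 libraries held 7170796 to 20501572 uniquely placed gene reads. The smallest was med25-1 hypoxia replicate 3, which also stood apart in composition, with 8.97% of its reads in its 20 highest genes against 13.4% to 15.9% in the other libraries.

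MED25 itself had 14.2, 15.3 and 21.5 CPM (counts scaled to library size and, by TMM, to composition) in med25-1 under hypoxia, against 26.2, 38.0 and 33.8 CPM in the wild type under hypoxia. Its level was 22.8, 20.6 and 31.2 CPM in med25-1 controls, against 34.6, 32.6 and 34.9 CPM in wild-type controls. The groups did not overlap in either treatment, and the difference passed the test under hypoxia (log2 fold change -0.96 ± 0.20 SE, adjusted p = 0.0066, edgeR quasi-likelihood test with Benjamini-Hochberg adjustment) but not under control (log2 fold change -0.45 ± 0.20, adjusted p = 0.133). Since the lesion is not described, reads over the whole gene do not show whether the transcript was intact. Rosette-leaf markers were present in every library, with RBCS1A, LHCB1.1 and CA1 summing to 9358 to 15913 CPM in med25-1 under hypoxia, 10523 to 15127 CPM in med25-1 controls, 16893 to 21138 CPM in wild-type hypoxia and 16051 to 19294 CPM in wild-type controls. Root, flower and seed markers summed to at most 36.2, 7.45 and 0.138 CPM, with the root-hair genes RHD6 and EXPA7 at 0 in all libraries. The leaf sums were lower in med25-1 with no overlap in either treatment, and their part in the results was not tested. Taken singly, LHCB1.1 overlapped between genotypes in both treatments. Of the 3 leaf markers, 0 were called under control and 1 (CA1) was called lower under hypoxia. Libraries of the genotypes did not overlap for 36.0% of all tested genes under hypoxia and 47.2% under control, in CPM without TMM scaling.

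MED25 belongs to Mediator, which carries signals from DNA-bound transcription factors to RNA polymerase II, and in Arabidopsis it is best known for its part in jasmonate responses, defence and flowering time. Plant immunity is organised in layers: receptor-like kinases and receptor-like proteins sense signals at the cell surface, NLR proteins sense effectors inside the cell, and WRKY and NAC transcription factors and salicylate metabolism follow. Jasmonate and salicylate signalling are known to oppose each other in leaves. Read counts of bulk rosettes do not separate fewer cells that express a gene from less RNA per cell.

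The sequences just upstream of 4 of the genes are shown because they carry the letters that were counted in all upstream windows. Each is the 250 bases before the annotated start of the gene, read 5′ to 3′ on the gene's strand from the RefSeq copy of the TAIR10 genome. Capitals mark TTGAC, the core of the W-box that WRKY factors bind, and TGACG, the core bound by TGA factors, on either strand (GTCAA and CGTCA are the reverse complements). Windows overlapping another gene were not printed.
QQS (chr3:12348797-12349046, plus strand): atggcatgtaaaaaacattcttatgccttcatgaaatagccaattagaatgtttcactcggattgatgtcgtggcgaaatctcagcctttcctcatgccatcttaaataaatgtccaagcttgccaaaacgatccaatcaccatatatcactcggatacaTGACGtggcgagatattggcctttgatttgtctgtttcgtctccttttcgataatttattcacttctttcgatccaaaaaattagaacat
AT4G10500 (chr4:6490767-6491016, plus strand): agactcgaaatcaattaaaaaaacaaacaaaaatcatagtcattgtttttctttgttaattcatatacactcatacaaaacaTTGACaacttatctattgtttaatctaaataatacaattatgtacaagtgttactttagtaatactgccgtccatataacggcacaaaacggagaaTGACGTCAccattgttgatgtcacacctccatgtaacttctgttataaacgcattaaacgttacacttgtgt
MSRB8 (chr4:11588374-11588623, minus strand): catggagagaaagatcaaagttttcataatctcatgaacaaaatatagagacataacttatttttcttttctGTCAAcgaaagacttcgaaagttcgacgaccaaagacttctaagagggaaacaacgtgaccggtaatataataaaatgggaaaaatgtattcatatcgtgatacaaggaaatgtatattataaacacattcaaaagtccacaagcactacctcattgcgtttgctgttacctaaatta
AT3G28320 (chr3:10581581-10581830, plus strand, read in the wild type only): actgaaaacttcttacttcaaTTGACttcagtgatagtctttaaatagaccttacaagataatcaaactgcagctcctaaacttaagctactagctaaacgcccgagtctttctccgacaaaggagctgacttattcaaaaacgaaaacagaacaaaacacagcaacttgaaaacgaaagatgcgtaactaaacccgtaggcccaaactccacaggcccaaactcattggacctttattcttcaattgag
QQS held TGACG and no TTGAC, and AT4G10500 held both, with TGACG and its reverse complement overlapping in 1 run of 8 letters. Over all members, TTGAC occurred on either strand in 34 of 49 windows of the med25-1-only genes (69.4%) and in 1 of 9 windows of the wild-type-only genes (11.1%), against 44.7% of 18185 windows of all tested genes. TGACG occurred in 13 of 49 (26.5%) and 1 of 9, against 19.3%. CACGTG, the G-box, occurred in 4 of 49 (8.16%) and 0 of 9, against 7.39%. TTGACG counts for both of the first motifs. A match is a string of letters and not a shown binding site.

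The wild-type background of the med25-1-only genes was close to empty. All 49 together had 67626 reads in the 6 med25-1 libraries, against 225 reads in the 6 wild-type libraries. In the wild type, 9 genes had no read, 12 had 1 to 3 reads and 28 had more than 3. Reads that cross a splice junction numbered 13688 in med25-1 and 48 in the wild type. They are a part of the reads used in the choice, so this split was set by it too. The 9 wild-type-only genes had 50 reads in the 6 med25-1 libraries, against 17277 in the 6 wild-type libraries. None of these 9 was without a read in med25-1.

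**Figure D1:**
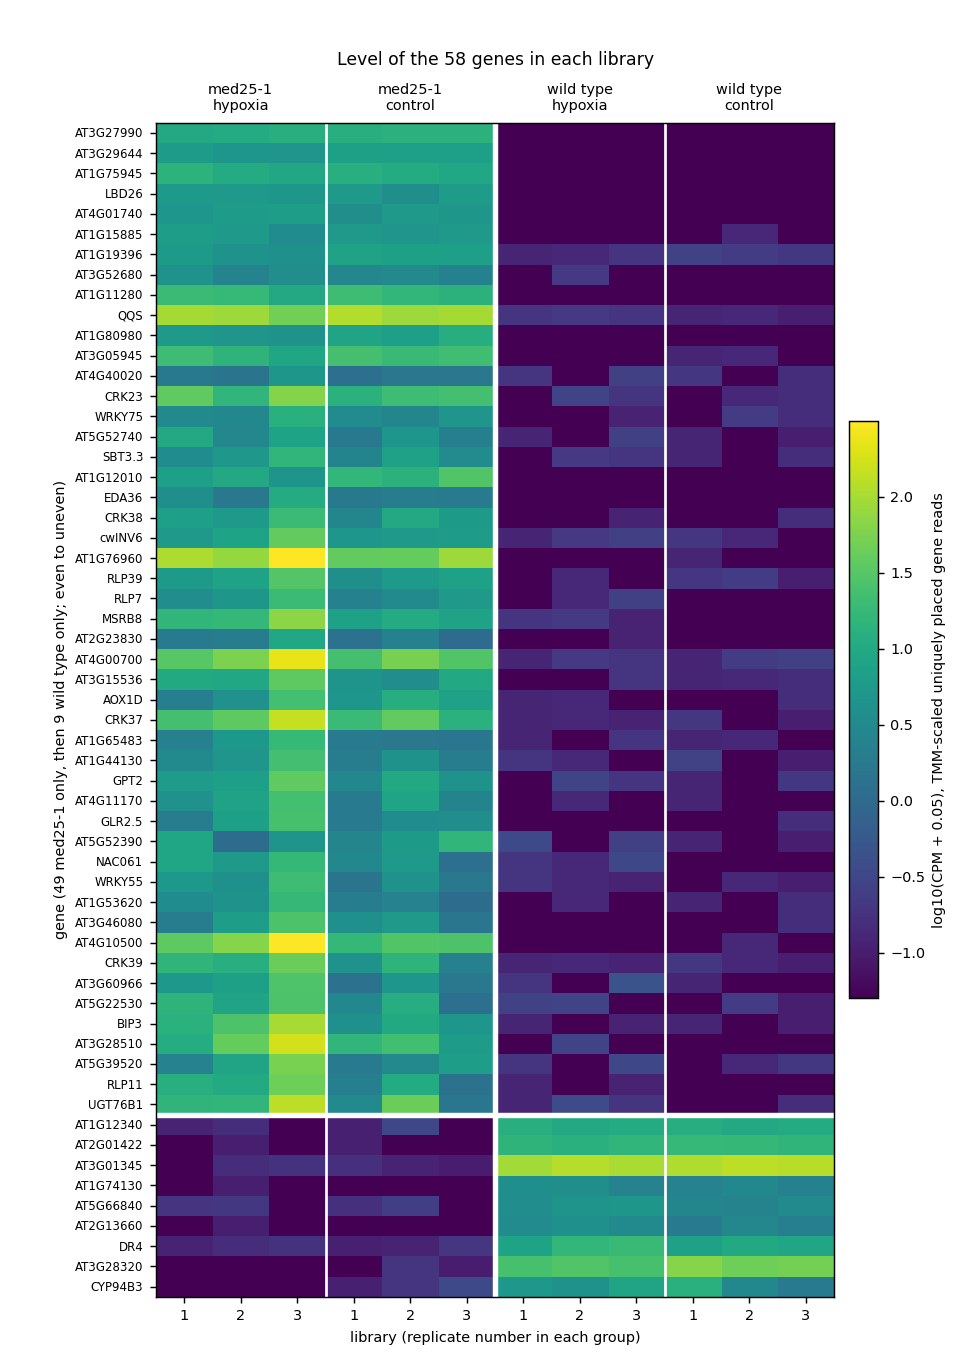
Each row is a gene and each column a library, with med25-1 left of the wild type and hypoxia left of control; the colour is log10(CPM + 0.05) of uniquely placed, TMM-scaled gene reads. The 49 med25-1-only genes are ordered from the most even (AT3G27990, 1.41-fold between its lowest and highest med25-1 library) to the least even (UGT76B1, 86.4-fold), and many rows are brightest in med25-1 hypoxia replicate 3.

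The 12 med25-1-only genes with the highest levels are given first, in RPKM, which allows levels of different genes to be compared. AT1G76960 (chr1:28920317-28920976, minus strand), a small uncharacterized protein gene, had 190, 138 and 558 RPKM in med25-1 under hypoxia and 67.7, 67.5 and 146 RPKM in med25-1 controls, against 1 read in all 6 wild-type libraries. QQS (AT3G30720, chr3:12349047-12349933, plus strand), an orphan gene of A. thaliana that affects starch content, had 138, 123 and 71.1 RPKM in med25-1 under hypoxia and 157, 122 and 131 RPKM in med25-1 controls, against 1 or 2 reads in each wild-type library. AT4G10500 (DLO1, chr4:6491017-6492578, plus strand), an oxygenase that hydroxylates salicylate, had 25.3, 45.9 and 231 RPKM in med25-1 under hypoxia and 11.9, 20.2 and 18.1 RPKM in med25-1 controls, against 1 read in the wild type. AT1G76960 and AT4G10500 were highest in med25-1 hypoxia replicate 3, and QQS was lowest there.

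MSRB8 (AT4G21840, chr4:11586980-11588373, minus strand), a methionine sulfoxide reductase that repairs oxidized methionine, had 20.7, 22.1 and 93.5 RPKM in med25-1 under hypoxia and 9.93, 14.3 and 10.3 RPKM in med25-1 controls, against 5 reads in the wild type. AT3G28510 (chr3:10685470-10687429, plus strand), a P-loop nucleoside triphosphatase, had 5.67, 20 and 89.4 RPKM under hypoxia and 7.79, 10.9 and 2.94 RPKM in controls of med25-1, against 3 reads in the wild type, all in 1 library. AT1G75945 (chr1:28515245-28515916, minus strand), an uncharacterized protein gene, had 28.8, 22.4 and 18.4 RPKM under hypoxia and 24.6, 21.0 and 18.5 RPKM in controls of med25-1, against no read in any wild-type library. MSRB8 and AT3G28510 again peaked in hypoxia replicate 3, whereas AT1G75945 stayed within a narrow band.

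CRK37 (AT4G04500, chr4:2238370-2240921, plus strand), a cysteine-rich receptor-like kinase, had 10.4, 15.3 and 65.2 RPKM in med25-1 under hypoxia and 8.40, 16.2 and 5.25 RPKM in med25-1 controls, against 6 reads in the wild type. UGT76B1 (AT3G11340, chr3:3556554-3558361, plus strand), a glucosyltransferase that inactivates salicylate and N-hydroxypipecolate, had 8.62, 8.89 and 74.6 RPKM under hypoxia and 1.83, 24.1 and 0.798 RPKM in controls of med25-1, against 9 reads in the wild type. AT4G00700 (chr4:285876-289575, plus strand), a C2-domain protein gene, had 8.65, 15.2 and 65.3 RPKM under hypoxia and 6.44, 13.7 and 7.34 RPKM in controls of med25-1, against 12 reads in the wild type, the most the criterion allows. In med25-1 controls all 3 genes were highest in replicate 2.

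AT1G19396 (chr1:6709778-6711788, plus strand), an uncharacterized protein gene, had 16.8, 13.7 and 11.1 RPKM in med25-1 under hypoxia and 21.5, 20 and 22.2 RPKM in med25-1 controls. Only 19.3% of its med25-1 reads were uniquely placed, 2 other features overlap it, and with reads that match several places it had 2979 reads in med25-1 against 111 in the wild type. AT5G22530 (chr5:7480413-7481206, plus strand), uncharacterized, had 18.2, 9.91 and 34.8 RPKM under hypoxia and 3.43, 13.7 and 1.33 RPKM in controls of med25-1, against 9 reads in the wild type. AT5G39520 (chr5:15823735-15825566, minus strand), a gene of unknown function, had 2.24, 7.71 and 53.0 RPKM under hypoxia and 1.73, 2.84 and 5.69 RPKM in controls of med25-1, against 10 reads in the wild type. Of the genes with an exon in the deposited table, the other med25-1-only genes lay at or below the 12 RPKM of BIP3 and at or above the 0.928 RPKM of AT4G40020.

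Among the med25-1-only genes, surface receptors numbered 8. These receptor-like proteins and kinases were RLP7, RLP11, RLP39, CRK23, CRK37, CRK38, CRK39 and the S-locus lectin kinase AT1G11280, with mean levels of 2.06 to 20.1 RPKM over the med25-1 libraries. All of these but AT1G11280 were highest in med25-1 hypoxia replicate 3. AT1G11280 (chr1:3787318-3790935, minus strand) had no read in the wild type and 281, 328 and 74 reads under hypoxia and 354, 240 and 275 reads in controls of med25-1, at least 484-fold more than the wild type when 3 reads over the 6 wild-type libraries are taken as the floor. The intracellular receptor AT4G11170 (RMG1), a TIR-type NLR, had 582 reads in med25-1 against 2 in the wild type.

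The 5 transcription factors were WRKY55, WRKY75, NAC061, the LOB-domain factor LBD26 and the zinc-finger gene AT3G46080, at 3.35 to 9.93 RPKM. WRKY75 is known for its part in senescence and salicylate accumulation. LBD26 (AT3G27940, chr3:10373251-10376480, plus strand) had no read in the wild type and 79, 103 and 38 reads under hypoxia and 94, 57 and 124 reads in controls of med25-1. When library size is accounted for, these 6 libraries were within 1.60-fold of each other.

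The 10 enzymes included, besides AT4G10500, UGT76B1 and MSRB8, the alternative oxidase AOX1D, the mitochondrial enzyme that bypasses the cytochrome pathway, and the subtilase SBT3.3, a protease linked to immune priming. The others were the aspartyl protease AT1G44130, the fructan exohydrolase cwINV6, the oxygenase AT1G12010, EDA36 and AT3G28510. AT1G12010 and EDA36 had no read in the wild type. AT1G12010 had 99, 187 and 35 reads under hypoxia and 283, 202 and 582 reads in controls of med25-1, and was at least 433-fold higher in med25-1 by the same floor. EDA36, a relative of serine hydroxymethyltransferases, had 56, 30 and 82 reads under hypoxia and 29, 28 and 36 reads in controls of med25-1, at least 81.5-fold more.

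Chaperone, transport and membrane genes were BIP3, GPT2, GLR2.5, AT5G52740 and AT4G00700. BIP3 is an endoplasmic reticulum chaperone of the unfolded protein response, GPT2 a plastid glucose-6-phosphate translocator and GLR2.5 a glutamate-receptor-like channel. A further 8 genes are named by domain only (AT2G23830, AT3G52680, AT3G60966, AT4G01740, AT4G40020, AT5G52390, AT5G39520 and AT1G80980), and 7 encode uncharacterized proteins. Among them AT1G75945, AT1G80980 and AT4G01740 had no read in the wild type and were at least 323-fold, 209-fold and 151-fold higher in med25-1.

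The remaining 4 med25-1-only genes are noncoding RNAs: AT3G05945, AT3G15536, AT3G27990 and AT3G29644. They have no exon in the deposited table, so their reads were all classed as intron reads and their RPKM was 0. AT3G27990 (chr3:10392571-10398235, minus strand) had 141, 207 and 90 reads under hypoxia and 213, 201 and 272 reads in controls of med25-1, against none in the wild type. AT3G29644 (chr3:11498879-11501424, minus strand) had 89, 94 and 36 reads under hypoxia and 124, 101 and 140 reads in controls of med25-1, against none in the wild type. These were at least 351-fold and 182-fold higher in med25-1. Noncoding RNAs made up 8.16% of the med25-1-only genes, between their 1.16% of all tested genes and 11.1% of all 33208 features. AT3G27990 overlaps the gene AT3G27980 on the opposite strand, and no source used here says whether the counting used the strand, so reads of the partners cannot be told apart. The same holds for the other 7 med25-1-only genes that overlap another feature.

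The 9 wild-type-only genes were mostly of unknown function and little alike. AT3G01345 (chr3:129138-130749, plus strand), uncharacterized, had 0.0642 and 0.0823 RPKM in 2 med25-1 hypoxia libraries, 0 in the other and 0.0285 to 0.0689 RPKM in med25-1 controls, against 54.1, 64.7 and 58.3 RPKM in the wild type under hypoxia and 61.2, 77.8 and 70.5 RPKM in wild-type controls. AT3G28320 (chr3:10581831-10582784, plus strand), uncharacterized, had 3 reads in med25-1, against 20.1, 23.9 and 21.1 RPKM in the wild type under hypoxia and 53.2, 40.3 and 42.4 RPKM in wild-type controls. DR4 (AT1G73330, chr1:27568714-27569823, minus strand), a gene named for being repressed by drought, had 9 reads in med25-1, against 6.72, 12.8 and 14.9 RPKM in the wild type under hypoxia and 6.03, 8.76 and 7.08 RPKM in wild-type controls. All 3 genes were separated between the genotypes by a wide gap in both treatments.

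CYP94B3 (AT3G48520, chr3:17974853-17976774, minus strand), the cytochrome P450 that begins the breakdown of jasmonoyl-isoleucine, had 9 reads in med25-1, all in controls, against 2.54, 2.00 and 4.00 RPKM in the wild type under hypoxia and 5.90, 1.43 and 0.817 RPKM in wild-type controls. The other wild-type-only genes were the SAP-domain gene AT5G66840 (1.73 RPKM), the rhomboid-protease relative AT1G74130 (0.774 RPKM), the noncoding RNA AT2G01422, AT2G13660 and the cornichon gene AT1G12340. AT1G74130 drew 65.1% of its wild-type reads from introns, against a median of 0.775% over 14940 genes read in the wild type. AT2G13660 depended on read placement: only 3.73% of its wild-type reads were uniquely placed, and by all reads it had 343 in med25-1 against 6266 in the wild type.

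AT1G12340 (chr1:4197396-4198310, plus strand), a member of the cornichon family of cargo receptors, has a near copy, AT1G12390, with 97.4% identity over 93.3% of the transcript. AT1G12340 averaged 0.0583 ± 0.0538 CPM in med25-1 under hypoxia and 0.11 ± 0.143 CPM in med25-1 controls, against 10.7 ± 1.05 CPM in the wild type under hypoxia and 10.6 ± 0.917 CPM in wild-type controls (SD, n = 3 each). AT1G12390 ran the other way, at 19.9 ± 4.64 CPM in med25-1 under hypoxia and 17.3 ± 1.84 CPM in med25-1 controls, against 5.94 ± 1.69 CPM in wild-type hypoxia and 6.70 ± 0.503 CPM in wild-type controls. Its genotype difference, which the choice of genes did not use, was 1.74 under hypoxia (adjusted p = 0.000357) and 1.37 under control (adjusted p = 0.0016) on the log2 scale in the edgeR quasi-likelihood test. The sum of both genes was 20 ± 4.65 CPM in med25-1 under hypoxia and 17.4 ± 1.87 CPM in med25-1 controls, against 16.7 ± 2.74 CPM in wild-type hypoxia and 17.3 ± 1.38 CPM in wild-type controls. Ranges of the sum overlapped between genotypes in both treatments. Reads of near-identical copies can be assigned to the wrong copy, which was not tested here.

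In the med25-1-only direction, values just inside and outside the limits show no gap there. Inside, AT1G19396 and AT4G00700 had 12 wild-type reads, and AT2G23830, AT4G40020 and AT5G52390 had 20 reads in their lowest med25-1 library. Outside, MAF4 had 13 wild-type reads, WRKY51, ZAT7, AT3G13950 and ATGLR1.2 had 14, and CCR4, AT4G17660 and AT5G51465 had 16. RLP20 and AT4G01593, with no read in the wild type, missed only by 18 and 17 reads in their lowest med25-1 library. In the wild-type-only direction, AT5G66840 was inside with 10 med25-1 reads. AT1G11370 and GRP9 were outside, with 18 and 17 reads in their lowest wild-type library. These are too few to show whether there is a gap.

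The same criterion was then read in libraries that had not been used to choose. With 20 reads in each of the 3 med25-1 control libraries and at most 6 in the 3 wild-type control libraries, 69 genes were chosen, of which 43 (62.3%) met it again under hypoxia. Of the 89 genes chosen under hypoxia, 43 (48.3%) met it under control. In levels, 68 of the 69 and 88 of the 89 had every med25-1 library above every wild-type library in the other treatment. Over all tested genes, the med25-1 libraries lay above those of the wild type in this way for 21.5% under hypoxia and 26.1% under control, and 12% and 8.98% were called higher. For the wild-type-only direction, 8 of 11 genes chosen under control and 8 of 12 chosen under hypoxia met the criterion in the other treatment. Of the genes chosen under control that failed, CYP71A13 had 75 wild-type reads under hypoxia and ARD3 had 37; both are named after their values were seen.

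Within med25-1, the 49 genes were sorted by the ratio of the highest to the lowest CPM over the 6 libraries, hypoxia and control together. No gene lay between 2.76-fold (AT3G05945) and 4.45-fold (AT4G40020). The 12 genes under 3-fold were AT1G11280, AT1G15885, AT1G19396, AT1G75945, AT1G80980, AT3G05945, LBD26, AT3G27990, AT3G29644, QQS, AT3G52680 and AT4G01740. They included 7 of the 9 genes without a read in the wild type and 3 of the 4 noncoding RNAs, and 1 of the 12 was highest in med25-1 hypoxia replicate 3. The other 37 genes spread 4.45-fold to 86.4-fold, included the named receptor-like proteins, CRKs, WRKYs and salicylate enzymes, and 34 of them were highest in med25-1 hypoxia replicate 3. Among 14543 tested genes with at least 20 reads in each med25-1 library, 34.3% were highest there. The upstream letters TTGAC occurred in 7 of the 12 and 27 of the 37 genes. This division rests on that library: without it, 27 of the 49 genes, not 12, spread less than 3-fold.

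The median spread of the 49 genes was 9.16-fold, and 34 (69.4%) spread 5-fold or more, against 1.74-fold and 4.50% among 14543 tested genes with at least 20 reads in each med25-1 library. Without med25-1 hypoxia replicate 3 the median was 2.75-fold and 11 genes (22.4%) spread 5-fold or more, against 1.47-fold and 1.52%. That library held 2299 CPM of the 49 genes together, against 651 and 690 CPM in the other med25-1 hypoxia libraries, 454 to 622 CPM in med25-1 controls and 1.84 to 3.95 CPM in the wild type. All 5 immune markers left out of the set were highest in the same library: PR1 had 978 CPM there, against 67.3 and 202 CPM in the other med25-1 hypoxia libraries, and FMO1 had 153 CPM, against 15.8 and 42.6 CPM. What set this library apart was not tested. The wild-type-only genes had a median spread of 2.04-fold over the wild-type libraries, with 8 of 9 under 3-fold and CYP94B3 at 7.47-fold.

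**Figure D2:**
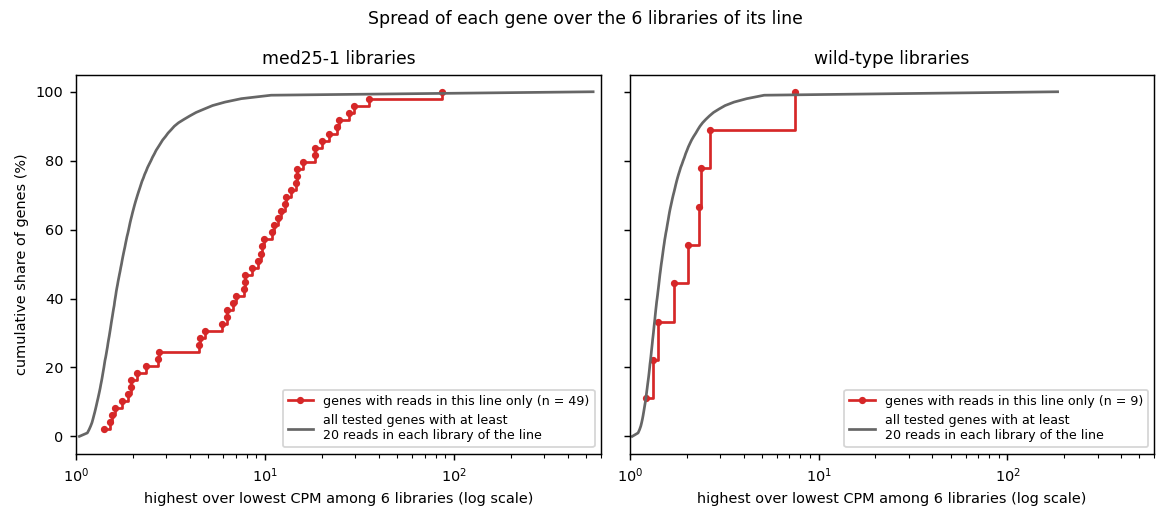
The x axis is the highest over the lowest CPM among the 6 libraries of a line on a log scale and the y axis the cumulative share of genes in percent; red steps are the genes read in that line only and grey curves all tested genes with at least 20 reads in each library of the line. The med25-1-only genes lie far to the right of the grey curve, with a flat stretch between 2.76-fold and 4.45-fold, whereas 8 of the 9 wild-type-only genes lie under 3-fold.

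Whether the genes respond to low oxygen within their own line was tested in a fit of all 18212 genes that passed the filter on low counts, which all 58 did. In med25-1, 1 of the 49 genes was called at an adjusted p under 0.05, against 5.28% of all tested genes (1.88% higher and 3.4% lower). It was BIP3, which had 13.3, 26.9 and 99.7 CPM under hypoxia, against 4.04, 10.1 and 4.90 CPM under control, with no overlap. BIP3 rose by 2.87 ± 0.61 SE on the log2 scale (adjusted p = 0.0199; range over the alternatives 0.00021 to 0.163, edgeR and DESeq2). The call was lost without med25-1 control replicate 1 or 3 and when only the med25-1 groups were fitted; without med25-1 hypoxia replicate 3 the log2 change was 1.67 (adjusted p = 0.0282). BIP1, the nearest relative of BIP3 with 74.0% identity, was higher in med25-1 than in the wild type under hypoxia (log2 fold change 2.51, adjusted p = 0.0024 in edgeR) and not called under control (1.21, adjusted p = 0.0684).

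The other 48 did not pass the test. DESeq2 called 7 of the 49, and it also called more of all tested genes than edgeR did (the numbers are in the last section). An unadjusted p under 0.05 was found for 30 of the 49. The share of all tested genes under this limit was not counted, so the number cannot be read as a response of the set. In 11 of the 49 (22.4%) the hypoxia and control libraries of med25-1 did not overlap, 6 with hypoxia higher and 5 with hypoxia lower, a share close to the 22.7% of all tested genes whose libraries did not overlap (5.28% were called). The median log2 fold change of the 49 was 1.47, against 0.02 over all tested genes, and 39 were positive. The criterion asked for at least 20 reads in every med25-1 library, the smallest being hypoxia replicate 3. The same 20 reads ask for a higher CPM in that library than in the larger ones, and what this did to the choice was not tested. Genes in the comparison were not held to the criterion, so these medians cannot show whether the 49 respond to hypoxia as a set. Without med25-1 hypoxia replicate 3 the median was 0.31, 2 genes were called (BIP3 and MSRB8) and 37 were positive. MSRB8 had 15.7, 17.2 and 68.2 CPM under hypoxia, against 7.45, 10.8 and 7.80 CPM under control (log2 fold change 1.94 ± 0.50, adjusted p = 0.0549; without that library 0.92, adjusted p = 0.0364; range over the alternatives 0.00483 to 0.202). AT1G12010 stood out in the negative direction, with 6.82, 9.92 and 4.61 CPM under hypoxia, against 16.3, 13.7 and 29.1 CPM under control (-1.44 ± 0.36, adjusted p = 0.0595 in edgeR and 0.00676 in DESeq2).

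**Figure D3:**
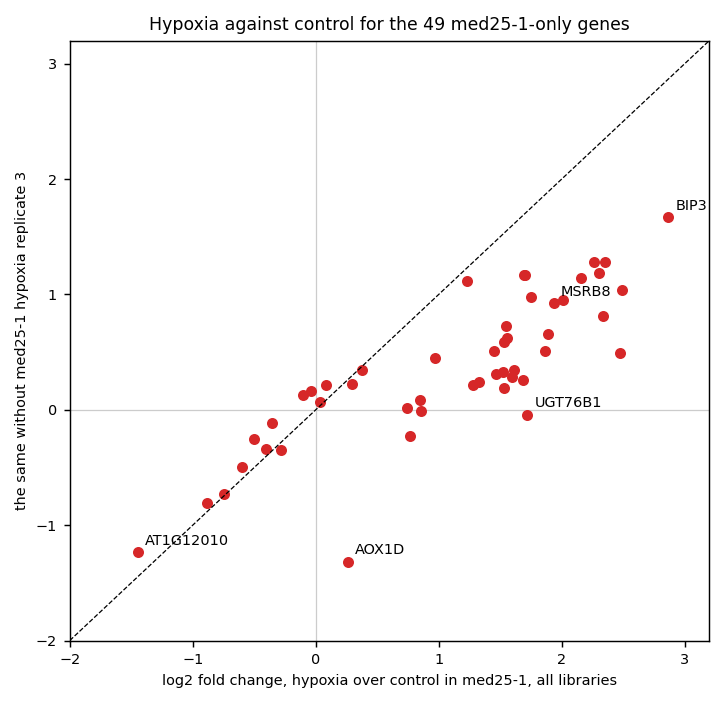
Each point is 1 of the 49 med25-1-only genes; the x axis is its log2 fold change of hypoxia over control in med25-1 with all libraries and the y axis the same without med25-1 hypoxia replicate 3, with the dashed line at equality. The median over all 49 is 1.47 on the x axis and 0.31 on the y axis, and the labelled genes are BIP3, MSRB8, UGT76B1, AOX1D and AT1G12010.

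In the wild type, 1 of the 9 genes was called for hypoxia, against 6.48% of all tested genes (3.05% higher and 3.43% lower). It was AT3G28320, with 24.3, 29.7 and 24.4 CPM under hypoxia, against 64.9, 46.0 and 51.2 CPM under control. It fell by 1.05 on the log2 scale (SE 0.20, adjusted p = 0.0121; range over the alternatives 5.03e-05 to 0.0716), and the call was lost on leaving out control replicate 1, hypoxia replicate 1 or hypoxia replicate 3 of the wild type. The median over the 9 was 0.06, and 2 had an unadjusted p under 0.05. The share of all tested genes under this limit was not counted, so the number has no comparison. Of 15 core hypoxia genes such as ADH1, PDC1 and LBD41, 14 rose under hypoxia in each line. None of the 15 was among the 58, which follows from the criterion, since genes well read in both lines cannot meet it.

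The 58 genes lay on all 5 chromosomes. The med25-1-only genes numbered 16, 2, 13, 11 and 7 on chromosomes 1 to 5, and the wild-type-only genes 3, 2, 3, 0 and 1. Most stood alone, and 4 pairs of med25-1-only genes were closer than 20 kb. CRK37 and CRK38 are 1150 bases apart and CRK38 and CRK39 14567 bases apart on chromosome 4, in a tandem array of cysteine-rich kinases. The noncoding RNAs AT3G29644 and AT3G05945 are 8665 bases apart on chromosome 3, with no feature between them, and LBD26 and AT3G27990 are 16090 bases apart with 3 features between them. The next closest pair was 117021 bases apart. The median length was 1960 bases for the med25-1-only and 1110 bases for the wild-type-only genes, against 2449 bases over all tested genes and 1800 bases over all features. Coding genes with a single exon were 7 of 45 (15.6%) and 4 of 8 (50%), against 11.7% of tested coding genes and 18.5% of all coding genes counted.

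Neighbouring features were not used in the choice and could be tested. Features that overlap 1 of the 58 genes were not set aside, and reads of such partners cannot be told apart. Some calls may therefore rest on reads of the genes themselves. The 2 nearest features on each side of the 58 genes made up 218 features, of which 116 passed the filter. Under hypoxia, 40 of the 116 (34.5%) were called between med25-1 and wild type, 32 higher and 8 lower in med25-1, against 21.6% of all tested genes (12% higher and 9.62% lower). Under control 31 (26.7%) were called, 26 higher and 5 lower, against 17.1% of all tested genes (8.98% higher and 8.13% lower). Beside med25-1-only genes the calls were 35 and 29 of 97, and beside wild-type-only genes 5 and 2 of 19, under hypoxia and control in that order. In all, 28 of the 116 were called in both treatments, each with the same sign, 24 higher and 4 lower in med25-1. The share of all tested genes called in both treatments was not counted, so these 28 have no comparison. No test of neighbours against other genes was made.

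Around AT1G15885 the neighbours moved in opposite directions. AT1G15890, an NLR gene 11 bases away, had 8.47, 15.0 and 14.5 CPM in med25-1 under hypoxia and 11.1, 14 and 14.5 CPM in med25-1 controls, against 2.03, 2.73 and 1.62 CPM in wild-type hypoxia and 1.78, 2.01 and 1.43 CPM in wild-type controls (log2 fold change 2.57 and 2.93, adjusted p = 0.000119 and 5.72e-05 under hypoxia and control in that order, edgeR). AT1G15870, of the mitochondrial glycoprotein family, had 0.265 to 1.1 CPM under hypoxia and 0.25 to 0.462 CPM in controls of med25-1, against 5.80 to 9.41 CPM and 8.61 to 10.6 CPM in the wild type (log2 fold change -3.37 and -4.69, adjusted p = 0.000234 and 3.58e-05). Neither gene overlapped between genotypes in either treatment.

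AT1G80970, 54 bases from AT1G80980, had 86 reads under hypoxia and 100 reads in controls of med25-1, against no read in any wild-type library, and was at least 28-fold higher in both treatments with 3 reads per wild-type group as the floor. It missed the set because its lowest med25-1 library had fewer than 20 reads. AT3G28310, beside the wild-type-only gene AT3G28320, had 0 to 0.212 CPM under hypoxia and 0.35 to 0.408 CPM in controls of med25-1, against 2.46 to 2.49 CPM and 5.43 to 6.98 CPM in the wild type (log2 fold change -4.59 and -3.93, adjusted p = 0.000234 and 0.000108 in edgeR). These neighbours followed the gene beside them in direction.

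The other named neighbours belong to gene families of the gene beside them. CRK36, 3680 bases from CRK37, had 42.8, 39.4 and 127 CPM in med25-1 under hypoxia, against 0.282 to 0.579 CPM in wild-type hypoxia (log2 fold change 7.41 ± 0.71, adjusted p = 7.53e-05). CRK24, 127 bases from CRK23, had 10.7, 4.40 and 11.1 CPM, against 0.282 to 0.724 CPM (4.24 ± 0.53, adjusted p = 0.00033). AT5G52760 and AT5G52750, metal-transport-like genes beside AT5G52740, had 71.7 to 229 and 40.3 to 73.2 CPM, against 1.34 to 2.32 and 11.6 to 16.3 CPM (6.09 ± 0.66 and 1.96 ± 0.25, adjusted p = 0.000157 and 0.000414). All 4 were called under control as well, and all p-values are from the edgeR fit.

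**Figure D4:**
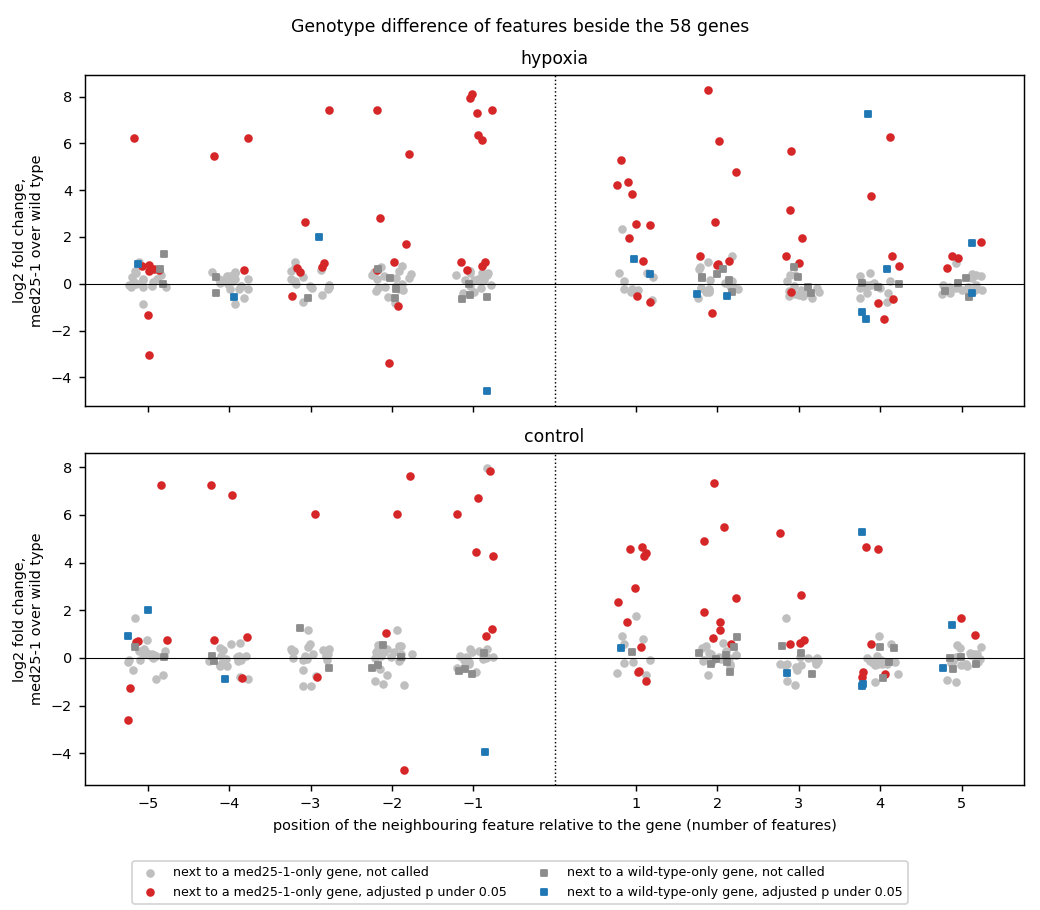
The x axis is the position of a tested neighbouring feature, counted in features from the gene, and the y axis its log2 fold change of med25-1 over wild type, for hypoxia (top) and control (bottom); red circles and blue squares are called features beside med25-1-only and wild-type-only genes, and grey points were not called. For a feature with no wild-type read, such as AT1G80970, the plotted size depends on the prior count of the fit and is no bound, and a feature beside several of the genes appears once for each.

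The nearest relative of each gene, at any place in the genome, was looked for by aligning transcripts. Some relatives bear the locus number next to that of the gene, such as ZAT7 (AT3G46090) for AT3G46080 and MSRB7 (AT4G21830) for MSRB8 (AT4G21840). The counts of relatives can thus share genes with those of the neighbours. Of the 49 med25-1-only genes, 28 had a nearest relative over at least 50% of the transcript, with identities of 65% to 99.4%. For 2 of them (CRK37 and CRK38) that relative was itself a member, CRK39. Of the 26 other relatives, 13 had at least 1 CPM on average in the wild type and 5 had none. Among the 17 that were tested, 5 were called higher and 2 lower in med25-1 under control, and 8 higher and 2 lower under hypoxia. Of all tested genes, 8.98% were higher and 8.13% lower under control, and 12% higher and 9.62% lower under hypoxia.

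RLP41, 91.1% identical to RLP39, ranged from 40.5 to 328 CPM over the med25-1 libraries, against 1.82 to 3.33 CPM in the wild type (log2 fold change 6.28 under hypoxia and 4.68 under control, adjusted p = 9.34e-05 and 0.00038 in edgeR). AT3G28540, the relative of AT3G28510, and NAC090, that of NAC061, were also higher in both treatments. GPT1, the relative of GPT2, passed the test in neither treatment and averaged 23.7 CPM in med25-1 and 23.4 CPM in the wild type (log2 fold change 0.04 under hypoxia and 0.00 under control, adjusted p = 0.872 and 0.991). AT1G80700, 99.4% identical to AT1G80980 over 59.4% of the transcript, averaged 7.06 CPM in med25-1 and 5.96 CPM in the wild type. Since 58% of the reads of AT1G80980 were uniquely placed, its level rests in part on how the reads of this pair were placed.

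Of the wild-type-only genes, 5 had such a relative. CYP94B1, related to CYP94B3 and also active on jasmonoyl-isoleucine, had 0.136 to 0.55 CPM over the med25-1 libraries, against 0.994 to 2.60 CPM in the wild type (log2 fold change -2.13 under hypoxia and -2.25 under control, adjusted p = 0.0181 and 0.00923 in edgeR). AT2G06845, the relative of AT3G01345, had at most 0.0577 CPM in med25-1, against 0.963 to 1.70 CPM in the wild type.

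Genes known to differ between natural accessions were listed for comparison, and none of the 14 was among the 58. AOP2 was not among the features counted and AOP3 had no read in any library, so neither could be a member. The list is a selection, so it does not show whether any of the 58 vary between accessions. Of the 12 that were tested, 1 was higher and 2 lower in med25-1 under control, and 1 higher and 4 lower under hypoxia, against 17.1% and 21.6% of all tested genes called in either direction. PAI1, an enzyme of tryptophan synthesis, had 1.98 to 4.75 CPM under hypoxia and 2.95 to 3.46 CPM in controls of med25-1, against 15.9 to 22 CPM and 19.6 to 26.5 CPM in the wild type (log2 fold change -2.47 and -2.83, adjusted p = 0.000126 and 4.84e-05 in edgeR). ERECTA, a receptor kinase of organ shape, was lower in both treatments (-0.86 and -0.81, adjusted p = 0.0186 and 0.0282), and RPM1, an NLR, was called higher under control only (0.56, adjusted p = 0.0339; 0.21 under hypoxia, adjusted p = 0.382), the difference between treatments not being tested.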

How the data were processed

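Per the labels' protocols, poly(A) libraries of rosette RNA were made with a strand-specific kit; the build was TAIR10, per the submitters' processing notes, the sources used here name no aligner or counter. Counts of uniquely placed gene reads, the main measure, were deposited by the authors, who also deposited total, exon, intron and junction counts. RPKM values, made by the authors from total exon reads per the file headers, served only to compare levels between genes. Of 293 columns, 203 were not used. CPM was computed here with TMM scaling (edgeR 4.0.16, R 4.3.3). Genes passing filterByExpr (18212) entered 1 quasi-likelihood fit of 4 groups, with Benjamini-Hochberg adjustment over all of them and calls at 0.05, two-sided; SEs are approximate. DESeq2 1.42.0, other scalings, filters and read classes and left-out libraries were alternatives. The fit was tested on simulated data with changed genes drawn at random from all tested genes. It recovered 88% to 90% of 4-fold and 40% to 45% of 2-fold changes, with 6 to 10 false calls. The med25-1-only genes varied more over their libraries than most tested genes, so these shares need not hold for them. Depth was 7170796 to 20501572 reads, and floors of 3 reads and read-count folds cover counting error only. Relatives came from blastn 2.17.0 (E-value at most 1e-10), positions and sequences from RefSeq. Full values were given for the 12 highest med25-1-only genes, called genes, and up to 8 neighbours and 3 genes a list; relatives and genes near the limits were named after their values were seen. Same-numbered libraries deviated together between med25-1 hypoxia and wild-type hypoxia (correlations 0.114 to 0.49) and not between the other groups. The genes, lists and tests were chosen with earlier results of these data known.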

Additional observations from a re-analysis of the deposited data

How the results depend on the processing

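The set moved with its limits. It held 86 med25-1-only and 15 wild-type-only genes at 10 reads per expressing library, 17 and 5 at 50 reads, 9 and 0 with no read allowed in the other line, and 75 med25-1-only genes with 30 reads allowed there. Leaving out 1 library gave 49 to 62 and 9 to 11 genes. For hypoxia in med25-1, 7 of the 49 were called with DESeq2, beside 1905 over all tested genes. With only the 2 groups compared 0 were called, beside 175, and without 1 library 0 to 12, beside 323 to 1842. With no filter on low counts 6 of the 49 were called, and the number over all genes is not given here. For the wild type, 0 to 1 of the 9 were called. Without med25-1 hypoxia replicate 3, a setting chosen after seeing the data, 11 genes spread 5-fold or more instead of 34. With 5 neighbours on each side, 79 of 268 tested (29.5%) were called under hypoxia and 62 (23.1%) under control, nearer the shares over all tested genes (21.6% and 17.1%) than with 2 on each side (34.5% and 26.7%); with only the 2 groups compared 25 under hypoxia; and without 1 library 26 to 45 under hypoxia and 21 to 45 under control. With the replicate number as a block, 3 of the 49 and 1 of the 9 were called for hypoxia, and 38 and 31 neighbours under hypoxia and control. The calls over all tested genes with this block are not given here. Over all tested genes, calls were 961 for hypoxia in med25-1 (175 with only 2 groups, 1905 with DESeq2, 323 to 1842 without 1 library) and 1181 in the wild type (2408 with only 2 groups, 559 to 1933 without 1 library). Between genotypes they were 3933 under hypoxia (1819 with only 2 groups, 2214 to 5124 without 1 library) and 3115 under control (5178 and 1285 to 5028). No named fold change reversed its sign while called. The causes were not tested.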
